A study of Mus musculus with 6 samples.

Results

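Chemokine transcripts of tumor cells were examined across MICs and non-MICs from PyMT mammary tumors. Of 10 listed chemokine genes (Cxcl1, Cxcl2, Cxcl5, Cxcl10, Cxcl14, Cxcl16, Ccl2, Ccl7, Ccl20 and Cx3cl1), 10 were found by symbol among the 22310 genes of the deposited table. The rule that took them used no measured value, but the list was chosen with earlier results of these data known. MMTV-PyMT mice carry the polyoma middle T oncogene under the mouse mammary tumor virus promoter, so that mammary epithelium forms tumors, and the labels give the genotype as WT and the tissue as mammary. Primary tumor cells were plated overnight in medium with serum, insulin and EGF and sorted the next day as Lin-CD24+CD90+ (metastasis-initiating cells, MICs) or Lin-CD24+CD90- (non-MICs), where Lin- means depleted of cells carrying Ter119, CD31 or CD45. RNA from 3 sorts of each population, numbered 1 to 3 in both, was sequenced as 6 libraries, with no further treatment of either population. The labels give neither the age of the mice nor whether a library holds cells of 1 tumor or of several, and the p-values below measure the spread between these libraries. For MMTV-PyMT mice the paper gives the FVB/N background, female sex and an age range, and it describes the replicates as independent experiments or tumors.

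Chemokines are small secreted proteins that attract leukocytes by binding G protein-coupled receptors on them, and they are grouped as CXC, CC or CX3C by the spacing of their first cysteines. Epithelial tumor cells make several of them, among them attractants of neutrophils, of monocytes and of T cells, and many of these genes are transcribed in response to inflammatory cytokines through NF-kB or to interferons. A few members are first made as membrane proteins and can be released by proteases.

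Values are given in scaled counts, that is, reads of a gene after each library was brought to a total of 35000000 by the authors. The libraries held between 31467281 and 51759769 reads, and 1 read was worth between 0.676 and 1.11 scaled counts. Both libraries numbered 3 were deeper (51759769 reads in MICs and 49904738 in non-MICs) than the other 4, none of which exceeded 33126717. Thy1, which encodes CD90, followed the gate in every library, with 1509, 301 and 755 scaled counts in MICs and 16.9, 21.1 and 12.6 in non-MICs for numbers 1, 2 and 3. The 6 luminal epithelial markers summed to between 231063 and 711468 scaled counts per library. The 8 leukocyte markers in the table summed to between 344 and 2434 in MICs and between 313 and 1367 in non-MICs, highest in both libraries numbered 2 (where Lyz2 alone gave 1635 and 834), with Ptprc, the gene of CD45, at 0 in both libraries numbered 1 and at most 10.0 elsewhere.

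Several of the genes lie next to each other or to other chemokine genes (GENCODE annotation, GRCm38). Cxcl5 (chr5:90759360-90761624), Cxcl1 (chr5:90891241-90893115) and Cxcl2 (chr5:90903871-90905938) lie on the plus strand in a stretch of 147 kb that holds 7 chemokine genes of the table in all. Ccl2 (chr11:82035571-82037453) is followed on the same strand by Ccl7 (chr11:82045712-82047525) after 8.26 kb. Cxcl10 (chr5:92346638-92348889, minus strand) lies 18.6 kb from Cxcl9. The others lie apart, namely Cxcl14 (chr13:56288643-56296551, minus strand), Cxcl16 (chr11:70453983-70459984, minus strand), Ccl20 (chr1:83116766-83119167, plus strand) and Cx3cl1 (chr8:94772009-94782427, plus strand). Exons of Cxcl2 share a stretch of 116 bases at 98.3% identity with Cxcl3, so reads of these neighbors could have been split between them and their values are less certain. Transcripts of Cxcl5 and Ilf2 share 87 bases at 97.7% identity, and the same limit holds for Cxcl5.

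RefSeq promoters (GRCm38.p6, from 250 bases before the start of transcription to 50 from it on) were at hand for 6 of the 10 genes. None was at hand for Cxcl5, Cxcl16, Ccl2 and Ccl7. Those of the 5 genes with a motif match are shown, because several of these genes varied together, as described further on, and that of Cx3cl1, which has none, is not printed. Capitals mark a match, on either strand, to the kappaB consensus (the motif bound by NF-kB), to the interferon response core GAAANNGAAA or to the AP-1 site TGANTCA. The windows are chr5:90890995-90891294, chr5:90903649-90903948 and chr1:83116516-83116815 on the plus strand and chr5:92348840-92349139 and chr13:56296502-56296801 on the minus strand, each written 5′ to 3′ along its gene.
Cxcl1: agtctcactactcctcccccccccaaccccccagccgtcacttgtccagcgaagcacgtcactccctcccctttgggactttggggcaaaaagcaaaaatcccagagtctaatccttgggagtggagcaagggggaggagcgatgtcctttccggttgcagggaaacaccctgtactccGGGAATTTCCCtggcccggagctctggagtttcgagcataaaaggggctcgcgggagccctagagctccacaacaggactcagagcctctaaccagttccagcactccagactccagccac
Cxcl2: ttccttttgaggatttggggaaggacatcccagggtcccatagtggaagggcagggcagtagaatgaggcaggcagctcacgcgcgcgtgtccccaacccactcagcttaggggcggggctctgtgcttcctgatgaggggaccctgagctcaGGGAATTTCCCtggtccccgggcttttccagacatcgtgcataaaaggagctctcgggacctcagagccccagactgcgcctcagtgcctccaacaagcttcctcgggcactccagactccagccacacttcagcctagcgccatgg
Ccl20: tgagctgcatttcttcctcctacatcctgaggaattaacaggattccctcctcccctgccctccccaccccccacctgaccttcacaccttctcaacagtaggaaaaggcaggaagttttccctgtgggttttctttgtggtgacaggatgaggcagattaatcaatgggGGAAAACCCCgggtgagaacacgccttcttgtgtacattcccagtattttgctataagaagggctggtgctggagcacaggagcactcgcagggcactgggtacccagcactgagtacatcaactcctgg
Cxcl10: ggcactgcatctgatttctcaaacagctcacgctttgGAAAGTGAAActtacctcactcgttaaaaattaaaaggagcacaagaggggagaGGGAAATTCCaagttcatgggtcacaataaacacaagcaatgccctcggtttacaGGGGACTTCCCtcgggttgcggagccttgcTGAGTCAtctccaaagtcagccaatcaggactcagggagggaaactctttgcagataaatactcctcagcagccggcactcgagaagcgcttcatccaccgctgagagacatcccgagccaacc
Cxcl14: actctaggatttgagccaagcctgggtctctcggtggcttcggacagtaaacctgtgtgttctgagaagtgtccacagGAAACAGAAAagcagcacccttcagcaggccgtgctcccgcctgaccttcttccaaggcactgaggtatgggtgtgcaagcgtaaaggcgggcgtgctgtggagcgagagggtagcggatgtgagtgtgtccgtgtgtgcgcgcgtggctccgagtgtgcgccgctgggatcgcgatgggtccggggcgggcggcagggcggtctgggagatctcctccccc

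A kappaB match stood in 4 of the 6 promoters, against 8.46% of 32851 mouse promoters of the same length. Cxcl1 and Cxcl2 carry the same capital letters, GGGAATTTCCC, which hold a pair of overlapping matches, from 71 to 61 bases before the start in Cxcl1 and from 97 to 87 in Cxcl2. Ccl20 has 1 match, 80 to 71 bases before its start. Cxcl10 has kappaB matches 159 to 150 and 104 to 94 bases before the start, an interferon core at 213 to 204 and an AP-1 site at 74 to 68. Cxcl14 holds an interferon core 172 to 163 bases before the start and no kappaB or AP-1 letters in this window, and Cx3cl1 holds none of the 3 motifs. The interferon core is found in 3.44% and the AP-1 site in 7.81% of all promoters. A match is a stretch of letters and not a site shown to be bound. Of the 4 genes with kappaB matches, Cxcl1, Cxcl2 and Ccl20 were called by replicate number in limma with all 6 libraries, as described further on, and Cxcl10 was not. The part of these motifs in that variation was not tested.

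The first question was how strongly each gene was expressed, and only values per kilobase of exon compare genes. On that scale, averaged over the 6 libraries, Cxcl1 was highest at 3982 scaled counts per kb. Cxcl16 (2004), Cxcl2 (1687), Ccl2 (806), Cxcl5 (518), Cx3cl1 (512), Cxcl14 (226), Cxcl10 (61.6), Ccl20 (57.9) and Ccl7 (11.5) followed. Most steps in this order were within the spread between libraries. Cx3cl1 was above Cxcl14, and Cxcl14 above Cxcl10, in 6 of 6 libraries. Cxcl1 was above Cxcl16, and Ccl20 above Ccl7, in 5 of 6. The steps from Cxcl16 to Cxcl2, from Cxcl2 to Ccl2 and from Cxcl10 to Ccl20 held in 4 of 6, and those from Ccl2 to Cxcl5 and from Cxcl5 to Cx3cl1 in 2 of 6.

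Cxcl1, Cxcl2 and Cxcl5 encode ligands of CXCR2, the receptor that draws neutrophils. Cxcl1 stood at 2249, 5072 and 13740.4 scaled counts in MIC replicates 1, 2 and 3 and at 4230.4, 3169 and 16339 in non-MIC replicates 1, 2 and 3. The populations overlapped, and both libraries numbered 3 lay above the other 4. Cxcl2 stood at 309, 103 and 8438 in MICs and at 432, 81.4 and 11568 in non-MICs. Its values in the libraries numbered 3 were 27.3 times the next highest in MICs and 26.8 times in non-MICs. Cxcl5 stood at 455, 305 and 2216 in MICs and at 407, 258 and 2148 in non-MICs. In both populations replicate 3 was several times above the others (4.87 and 5.27 times the next highest), while MICs and non-MICs of the same number were close to each other.

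Ccl2 and Ccl7 encode ligands of CCR2, which draws monocytes. Ccl2 stood at 43.1, 73.4 and 2332 scaled counts in MICs and at 62.4, 48.6 and 2946 in non-MICs. The libraries numbered 3 were 31.8 times the next highest in MICs and 47.2 times in non-MICs. Its neighbor Ccl7 was near the limit of counting, with 4, 6 and 29 reads in MICs and 8, 4 and 17 in non-MICs (4.31, 6.67 and 19.6 scaled counts against 8.47, 4.23 and 11.9). Replicate 3 was again the highest in both populations, but with so few reads the 95% counting interval of the MIC to non-MIC ratio in pair 1 ran from 0.112 to 1.90.

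Ccl20, the ligand of CCR6 on dendritic cells and on a subset of T cells, stood at 8.63, 2.22 and 161 scaled counts in MICs and at 35.99, 8.45 and 278 in non-MICs. It rested on 8, 2 and 238 reads in MICs and 34, 8 and 396 in non-MICs. In each pair MICs were lower, and replicate 3 was the highest library of both populations. The MIC to non-MIC ratios, with exact 95% intervals that cover counting error only, were 0.240 (0.0959 to 0.528), 0.263 (0.0272 to 1.32) and 0.579 (0.491 to 0.682) for pairs 1, 2 and 3. The interval of pair 2, where MICs had 2 reads, includes 1.

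Cxcl10 encodes a ligand of CXCR3 on activated T cells and is a classic target of interferons. It stood at 184, 61.2 and 109.5 scaled counts in MICs and at 175, 228 and 75.04 in non-MICs. It was the member whose order followed neither the population nor the replicate number, with its largest difference inside pair 2. Cxcl9, another interferon-induced ligand of CXCR3 and named here after its values were seen, was at 51.2 in MIC replicate 2 and 321 in non-MIC replicate 2, but in pair 3 it was at 58.8 in MICs and 1.40 in non-MICs.

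Cxcl16 and Cx3cl1 encode the chemokines that are anchored in the membrane, read by CXCR6 and CX3CR1. Cxcl16 stood at 6861, 2369 and 9186 scaled counts in MICs and at 6536, 2473 and 8904 in non-MICs. It was lowest in both libraries numbered 2, and the members of a pair differed by at most 0.070 on the log2 scale. Cx3cl1 stood at 3099, 2031 and 1511 in MICs and at 2065, 2026 and 1335 in non-MICs. Its values were lowest in the libraries numbered 3, and the range over all 6 was narrow beside that of Cxcl2, Ccl2 and Ccl20. Of the proteases that release both proteins, Adam10 ranged from 4721 to 6183 and Adam17 from 2138 to 3505, and neither was called in limma between the populations, with or without the block described below, or between replicate numbers.

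Cxcl14 encodes a CXC chemokine made by resting epithelia. It stood at 766, 556 and 158 scaled counts in MICs and at 411, 474 and 115 in non-MICs. Here the libraries numbered 3 were the low ones, at 0.206 of the highest MIC library and 0.242 of the highest non-MIC library. MICs were above non-MICs in each pair.

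**Figure D1:**
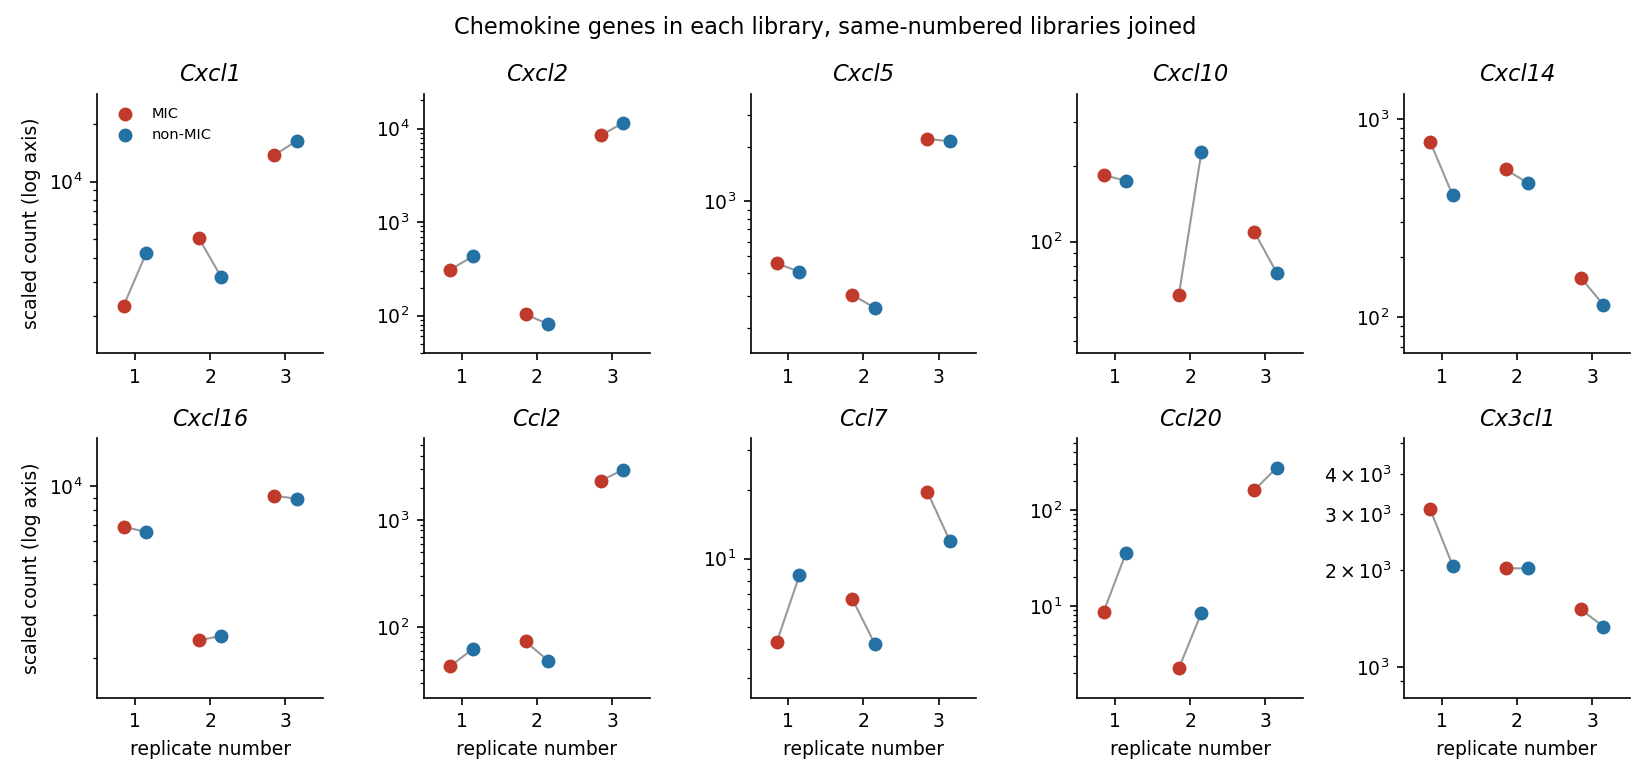
Scaled counts (log axis) of the 10 chemokine genes in the 6 libraries, by replicate number on the horizontal axis, with MICs in red, non-MICs in blue and a line joining libraries of the same number. Cxcl2, Ccl2 and Ccl20 differ far more between number 3 and the others than between the populations, Cxcl14 is lowest in number 3, and Cxcl10 shows its widest gap inside pair 2.

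Whether the genes differed between MICs and non-MICs was tested with limma on log2(scaled count + 1), a scale that understates changes of low genes, with p-values adjusted over all 22310 genes. None of the 10 genes was called, their adjusted p-values all being 1. The background was also 0% (0 of 22310 genes called, 322 at an unadjusted p under 0.05, and a smallest adjusted p of 0.816), and none of the 10 genes had an unadjusted p under 0.05. edgeR on the reads recovered from the values called 0 of the 10 genes and 0 genes in all (295 at an unadjusted p under 0.05), and DESeq2, which gave an adjusted p for 8 of the 10 (not for Cxcl2 and Ccl2), called 0 of them and 1 gene in all. MIC and non-MIC values overlapped for 10 of 10 genes, but the share over all genes was not computed, so this count does not set them apart. The log2 fold changes of MICs over non-MICs ranged from -1.43 ± 1.68 (SE, n = 3) for Ccl20 to 0.53 ± 0.73 for Cxcl14, and every other standard error also exceeded its fold change. In bulk RNA, fewer cells of a type that makes a transcript and less of the transcript per cell cannot be told apart.

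Libraries of the same number departed from their population means together, so the comparison was repeated with the replicate number as a block. With the block, limma called 0 of the 10 genes, beside 0.13% of all genes, and edgeR called 0, beside 1.41%. At an unadjusted p under 0.05 stood 2 of the 10 genes, Ccl20 and Cxcl14, beside 11.2% of all genes (2501). The log2 fold change of Ccl20 was -1.43 ± 0.42 (SE, 95% interval -2.33 to -0.52, adjusted p = 0.385 in limma with the block). Its adjusted p was 0.0601 in edgeR and 0.221 in DESeq2 with the block, so it passed the threshold in none of them. That of Cxcl14 was 0.53 ± 0.22 (interval 0.058 to 0.99, adjusted p = 0.423 in limma with the block, 0.264 in edgeR and 0.311 in DESeq2).

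For the remaining genes the intervals of the blocked limma fit included 0 and set bounds on what a difference could be. The narrowest was that of Cxcl16 (0.018, from -0.33 to 0.36). Those of the CXCR2 ligands ran from -0.68 to 0.36 for Cxcl1 (-0.16), from -0.64 to 0.25 for Cxcl2 (-0.20) and from -0.24 to 0.54 for Cxcl5 (0.15). Ccl2 (-0.092, from -0.67 to 0.48) and Cx3cl1 (0.26, from -0.12 to 0.63) were bounded about as closely. Cxcl10 (-0.42, from -1.27 to 0.43) and Ccl7 (0.13, from -1.02 to 1.29) had the widest intervals. A MIC level lower by 1 log2 unit lies inside both of them, and a level higher by as much lies inside that of Ccl7 only.

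Pair by pair, 3 of the 10 genes were higher in MICs in all 3 pairs, Cxcl5, Cxcl14 and Cx3cl1, as were 12.5% of all genes. The pair differences of Cxcl14 were 0.90, 0.23 and 0.45 on the log2 scale, those of Cxcl5 were 0.16, 0.24 and 0.045, and in pair 2 Cx3cl1 differed only as 2031 against 2026 scaled counts. Only Ccl20 was lower in MICs in all 3 pairs, by differences of -1.94, -1.55 and -0.78, as were 18.8% of all genes. Cxcl1 (-0.91, 0.68 and -0.25), Cxcl2 (-0.48, 0.34 and -0.46) and Ccl2 (-0.52, 0.59 and -0.34) shared 1 sequence of signs, lower in MICs in pairs 1 and 3 and higher in pair 2.

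**Figure D2:**
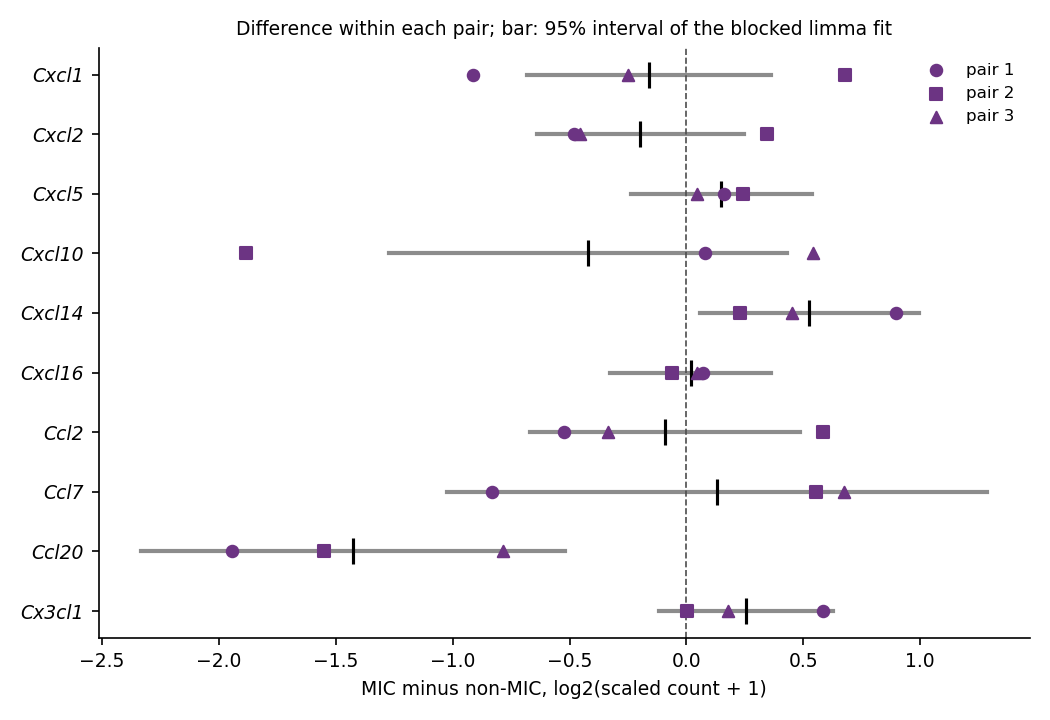
Difference between MICs and non-MICs of the same replicate number on the log2(scaled count + 1) scale for each chemokine gene, with pairs 1, 2 and 3 as circles, squares and triangles, the mean as a black tick and the 95% interval of the limma fit with the replicate block as a grey bar. The intervals of Ccl20 (below 0) and Cxcl14 (above 0) exclude 0 before adjustment, and neither gene passed the threshold over all genes.

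Markers of other cell types were also compared between the populations. The 6 basal epithelial markers summed to 403907, 23682 and 71222 scaled counts in MICs and to 140069, 23952 and 46867 in non-MICs, so the sum was not higher in MICs in pair 2. In limma with the block, 3 of the 6, Krt5, Acta2 and Myh11, were called higher in MICs, beside 0.13% of all genes. Krt17 and Trp63 were higher but not called there (adjusted p = 0.496 and 0.353). Krt14 was slightly lower (log2 fold change -0.098, adjusted p = 0.892). The 6 fibroblast markers summed to between 636 and 1973 in MICs and between 555 and 874 in non-MICs, with 0 called in limma with the block and 2 in edgeR, and Lum was at 0 in non-MIC replicate 2. The 3 endothelial markers in the table summed to at most 39.3. What part these cells have in the values of Ccl20 and Cxcl14 was not tested.

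The spread between replicate numbers was the larger feature of these genes. For each gene, the mean of its 2 libraries was taken per number on the log2 scale, and the range of the 3 means was set beside the largest MIC to non-MIC difference inside a pair. The range between pairs was the larger in 9 of the 10 genes, Cxcl10 being the exception, and in 55.4% of all genes. It was 6.74 for Cxcl2, 5.63 for Ccl2 and 5.27 for Ccl20, with a median of 2.17 over the 10 genes against 0.909 over all genes. Number 3 had the highest mean in 7 of the 10, against 36.8% of all genes.

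**Figure D3:**
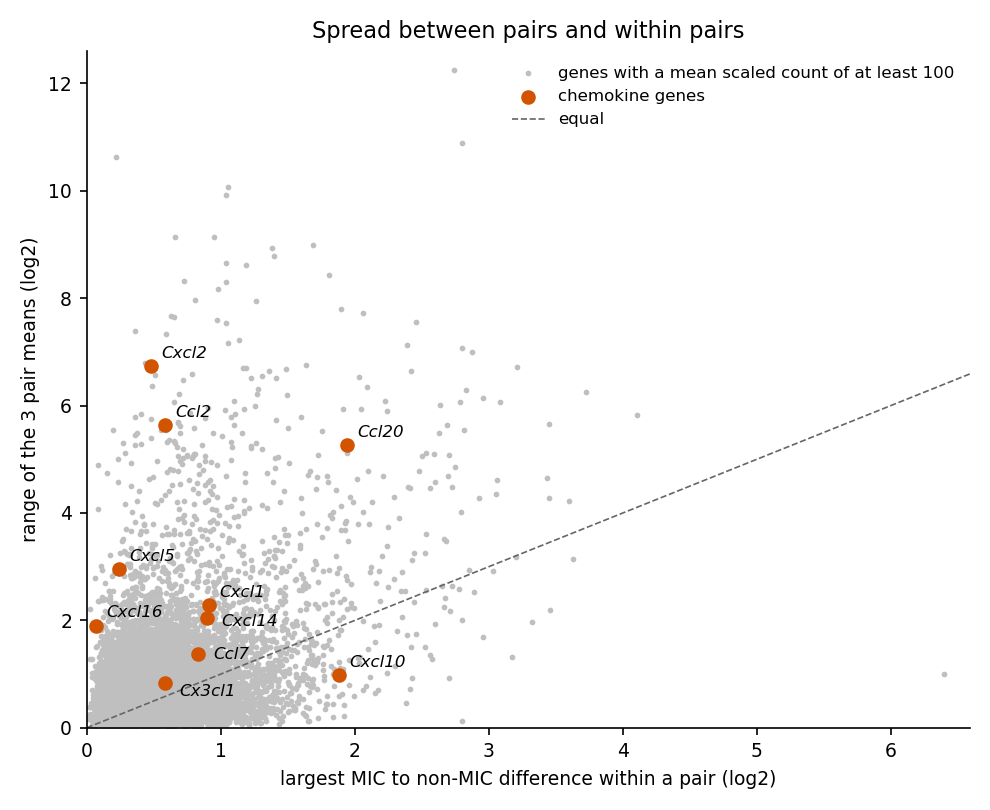
Range of the 3 pair means (vertical axis) against the largest MIC to non-MIC difference inside a pair (horizontal axis), both on the log2 scale, for the 10 chemokine genes in orange and for genes with a mean scaled count of at least 100 in grey, with a dashed line where both are equal. Cxcl2, Ccl2 and Ccl20 lie highest above the line among the chemokine genes, and Cxcl10 lies below it.

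A test of this spread was added after the values had been seen, as an F test of the replicate number in limma with the population in the model. Its error term rests on how the MIC to non-MIC differences vary between pairs, and each number is 1 pair of libraries. Its p-values therefore do not measure the spread between repeats of a number. The F test called 8 of the 10 genes, beside 28.4% of all genes, and edgeR also called 8, beside 31.6%. In 6 of the 8 (13.4% of all genes were called in this direction, or 47.3% of the genes called) the libraries numbered 3 were higher than the mean of numbers 1 and 2, in log2 units by 5.74 for Cxcl2 (adjusted p = 8.59e-09), 5.53 for Ccl2 (9.89e-08), 4.38 for Ccl20 (2.36e-05), 2.65 for Cxcl5 (1.66e-06), 2.09 for Cxcl1 (0.000156) and 1.17 for Cxcl16 (2.71e-05). Cxcl14 (-1.99, adjusted p = 0.000105) and Cx3cl1 (-0.67, adjusted p = 0.0250) were lower in number 3. Cxcl10 (-0.68, adjusted p = 0.289) and Ccl7 (1.28, adjusted p = 0.223) were not called. Here and below, adjusted p-values for the replicate number are of the F test over all 3 numbers, not of number 3 against the others. For Cxcl16, number 3 was 1.34 times the next highest in MICs and 1.36 times in non-MICs, and number 2 was lowest.

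The calls need both libraries numbered 3, while the differences of the 8 called genes stayed about as large with either alone. Without MIC replicate 3, and likewise without non-MIC replicate 3, limma called 0 of the 10 genes and 0 genes in all, whereas without any 1 of the other 4 libraries it called between 7 and 9 of the 10. The difference was 5.94 and 5.55 log2 units for Cxcl2, 5.72 and 5.35 for Ccl2, 3.90 and 4.86 for Ccl20 and -1.93 and -2.04 for Cxcl14 without MIC and without non-MIC replicate 3. The labels do not say what a number marks, such as a mouse, a tumor or a sorting day, and number 3 was also the deeper pair. The paper describes replicates as independent experiments or tumors, without saying which. The part of depth in these differences was not tested. The median difference between number 3 and the others over all genes was 0.036. Of the 8 leukocyte markers, which summed to 573 and 708 scaled counts in the libraries numbered 3, 5 were higher in number 3 than the mean of numbers 1 and 2 on the log2 scale, and their part in these differences was not tested either.

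The chemokines outside the 10 were looked at as a list. Of 28, 17 were in the table, 5 of them with fewer than 20 reads in every library. With the block, limma called 0 of the 17 and edgeR called 2, both higher in MICs, with a median log2 fold change of 0.37 against -0.044 over all genes. Cxcl12, the CXCR4 ligand made by stromal and basal cells, stood at 4517, 2227 and 533 scaled counts in MICs and at 989, 1505 and 315 in non-MICs. With the block, it was higher in MICs in edgeR (log2 fold change 1.17, adjusted p = 3.74e-06) and in DESeq2 (1.20, adjusted p = 0.00571). It did not pass in limma with the block (adjusted p = 0.181). Ppbp, a CXCR2 ligand of the same cluster as Cxcl1, stood at 5009, 734 and 18476 in MICs and at 2218, 804 and 8197 in non-MICs. With the block its adjusted p was 0.0297 in edgeR, 0.157 in DESeq2 and 0.417 in limma. Ccl9, a CC chemokine of myeloid attraction, stood at 167, 242 and 1076 in MICs and at 163, 109.9 and 916 in non-MICs and was not called.

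By replicate number, 8 of the 17 were called, beside 28.4% of all genes, and 4 of the 8 were higher in number 3, beside 47.3% of all genes called. Cxcl3, a further CXCR2 ligand whose values were looked at after the others, stood at 65.8, 27.8 and 658 in MICs and at 91.0, 12.7 and 598 in non-MICs. With Ppbp (2.94 log2 units higher in number 3, adjusted p = 1.76e-06) and Cxcl3 (3.99, adjusted p = 5.61e-06), the genes of the chromosome 5 cluster called higher in number 3 were Cxcl1, Cxcl2, Cxcl3, Cxcl5 and Ppbp, all ligands of CXCR2. Pf4, the platelet chemokine gene between Ppbp and Cxcl3, was called with a negative difference (-1.77, adjusted p = 0.000622), and Cxcl15 was not called. Pf4 stood at 7.55, 82.3 and 7.44 in MICs and at 1.06, 37.0 and 1.40 in non-MICs, so number 2 was high and number 3 was close to number 1. Cxcl12 was lower in number 3 (-2.26, adjusted p = 0.000165), as Cxcl14 was.

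The receptors were scarcely measured in these sorted cells. Of 18 chemokine receptors, 8 were in the table, 6 of them with fewer than 20 reads in every library, and none was called in limma or edgeR with the block. Cxcr4, the highest, ranged from 7.40 to 61.7 scaled counts. Cx3cr1, the receptor of Cx3cl1, was at 0 in both libraries numbered 1 and at most 26.7, and Ccr2, the receptor of Ccl2 and Ccl7, was at most 16.7. Cxcr2 was at most 6.34. Of 5 atypical receptors, which bind chemokines without signaling movement, 2 were in the table, and Ccrl2 was at 227 and 264 in the libraries numbered 3 and between 19.4 and 38.1 in the others. Ackr3 was at 228 and 219 in the libraries numbered 3 and between 93.1 and 182 in the others.

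Genes of related responses were followed by lists of NF-kB subunits and inhibitors, inflammatory cytokines and their receptors, interferon response genes and immediate early genes. The lists hold induced genes as well as regulators, so they are not a set of genes upstream of the chemokines. None of their genes (10, 15, 15 and 8 in the table) was called between MICs and non-MICs in limma or edgeR with the block. Of the 10 NF-kB genes, 1 had a log2 fold change above 0 and the median was -0.34, and 3, the subunits Rela, Nfkb2 and Nfkb1, had an unadjusted p under 0.05 and a lower level in MICs with the block (adjusted p between 0.418 and 0.438 in limma). Over all genes, 45.8% had a log2 fold change above 0 and 5.97% were lower at that unadjusted p. Rela stood at 2492, 3062 and 3790.1 scaled counts in MICs and at 4434, 4098 and 4306 in non-MICs. Of the 8 immediate early genes 0 had a log2 fold change above 0, the median was -0.39, and 4 were lower at an unadjusted p under 0.05 (beside the same 45.8% and 5.97% of all genes), among them Fos (-0.54), Egr1 (-0.51) and Jun (-0.50), each with an adjusted p of 0.417 or 0.418 in limma with the block.

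By replicate number in limma the lists differed from each other. Of all genes 28.4% were called and 13.4% were called and higher in number 3, with a median of 0.036 log2 units, and the counts below are read beside these shares. Higher here means above the mean of the other numbers on the log2 scale, so number 3 need not be the highest. Of the 10 NF-kB genes 9 were called, 8 of them higher in number 3 in this sense, with a median of 1.21. Relb, counted among the 8, stood at 1468, 674 and 1269 in MICs and at 1983, 894 and 1358 in non-MICs. Nfkb2, also counted, stood at 5086, 2975 and 5636 in MICs and at 7722, 4425 and 5781 in non-MICs. For the rest of the 8, number 3 was the highest in both populations. Nfkbia, the inhibitor that NF-kB itself induces, stood at 3983, 3180.0 and 14693 in MICs and at 5834, 3122 and 16420.4 in non-MICs. Tnfaip3, another inhibitor induced in the same way, stood at 6804, 5851 and 23969 in MICs and at 8103, 6124 and 28825 in non-MICs. Both libraries numbered 3 were the highest of their population for both genes, which were singled out after their values had been seen.

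Of the 15 cytokine and receptor genes 9 were called by replicate number, 7 higher in number 3, with a median of 0.64. Il1a, the gene of interleukin-1 alpha, stood at 75.5, 7.79 and 1502 scaled counts in MICs and at 127, 34.9 and 1812 in non-MICs (5.30 log2 units higher in number 3, adjusted p = 4.61e-07). Tnf, also singled out afterwards, stood at 423, 2.22 and 2540.5 in MICs and at 555, 7.40 and 2511 in non-MICs. Csf2, the gene of GM-CSF, stood at 1078, 394 and 2700.1 in MICs and at 772, 244 and 2272 in non-MICs. Of the 15 interferon response genes 9 were called and 3 of them were higher in number 3, with a median of -0.0059, and of the 8 immediate early genes 6 were called, 3 of them higher, with a median of 0.071. These counts are of limma. In edgeR, 14 of the 15 interferon response genes were called, 7 of them higher in number 3, and 12 of the 15 cytokine and receptor genes, 10 of them higher. It called 9 of the 10 NF-kB genes, 8 of them higher, and 6 of the 8 immediate early genes, 3 of them higher, beside 31.6% of all genes.

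**Figure D4:**
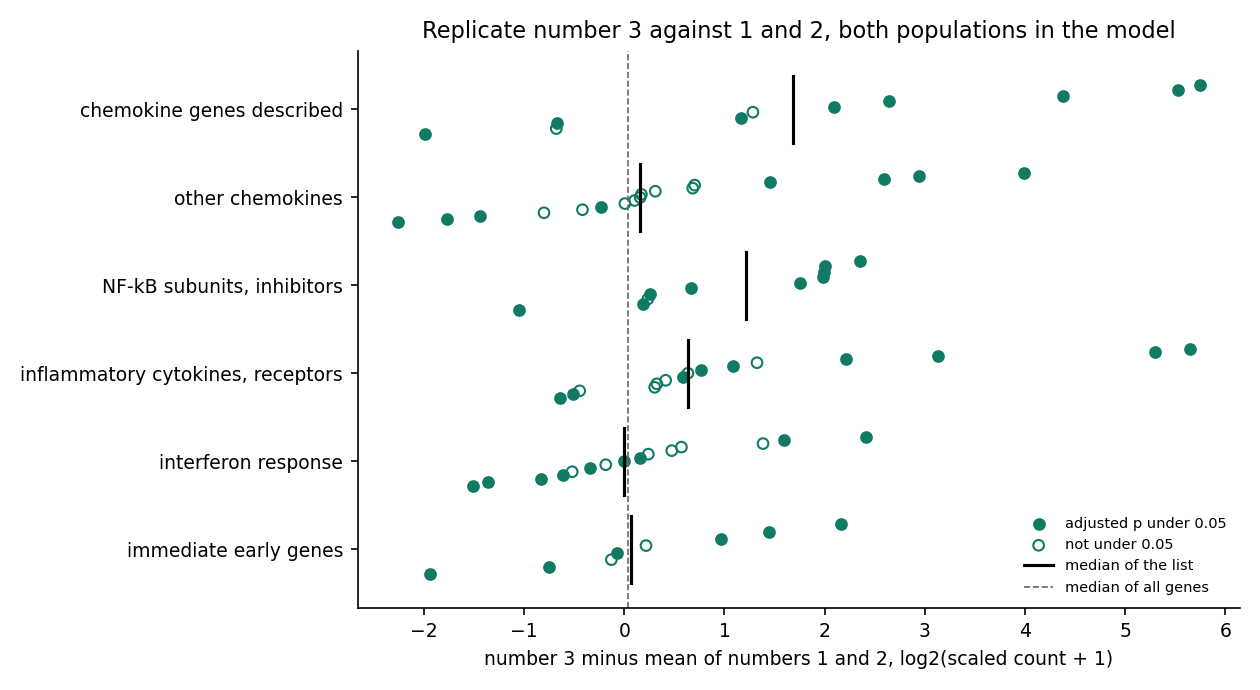
Difference between replicate number 3 and the mean of numbers 1 and 2 on the log2(scaled count + 1) scale, 1 point per gene in each list, filled where the limma F test of the replicate number gave an adjusted p under 0.05, with black lines at the list medians and a dashed line at the median of all genes (0.036). The 10 chemokine genes (median 1.69) and the NF-kB genes (median 1.21) lie mostly to the right, and the interferon response genes (median -0.0059) lie on both sides.

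For the 8 chemokine genes with a mean scaled count of at least 100, which leaves out Ccl7 and Ccl20, the genes whose levels ran most like theirs were sought among 11172 genes above the same mean, by Pearson's r of log2(scaled count + 1) over the 6 libraries. These r values describe 6 points that share their replicate numbers and depths, and with so many genes compared, high values come easily. The closest were Pvr for Cxcl1 (r = 0.9992), Dtl for Cxcl2 (0.9996), Gm7809 for Cxcl5 (0.9985), Cyp39a1 for Ccl2 (0.9966) and Fam3c for Cxcl16 (0.9990). For the genes that were low in number 3 they were 2310011J03Rik for Cxcl14 (0.9988) and Pgf for Cx3cl1 (0.9966). Cxcl10 had the loosest closest match, Actr1b (0.9861).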

How the data were processed

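RNA of sorted MICs and non-MICs, 3 libraries each, was made into stranded mRNA libraries by the authors and read for 75 cycles. The reads were counted per gene against GRCm38 (mm10). The study's methods name Bowtie2 and samtools and the submitters' processing notes name STAR and HTSeq, and versions are not given in the sources used here. The deposited signal is counts that the authors scaled to 1 total per library, with genes kept that were expressed in at least 3 of the 6 libraries. Divided by what 1 read is worth, between 99.99% and 100.0% of a library's values were whole to within 0.01 reads.

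Symbols came from GENCODE and matched 22161 of 22310 identifiers. The main test was limma 3.58.1 in R 4.3.3 (lmFit, eBayes with a trend) on log2(value + 1), unpaired as in the study's ranking, with Benjamini-Hochberg adjustment over 22310 genes and a threshold of 0.05. No further filter was used. The shared replicate numbers pair the libraries: departures from the population means correlated across genes at 0.573, 0.668 and 0.746 for the same number and between -0.536 and -0.194 for different ones. Departures of a population cancel out for each gene, so positive values for the same number make those for different ones negative on average. Only the values for the same number bear on the pairing. A second fit took the number as a block. The recovered reads were also tested with edgeR 4.0.16 (quasi-likelihood) and DESeq2 1.42.0. An exact permutation test of 3 against 3 cannot go below p = 0.1. The scripts were tested on simulated data. Counting intervals cover counting error only, since reads carry no molecular identifiers.

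The 10 genes and all lists were chosen with earlier results of these data known. By rule, named genes were the 10, genes of each list called by limma with the block or with the 3 largest changes of 1 direction in 3 pairs (mean value of at least 100), and the 3 highest other chemokines and receptors. Adam10, Cxcr2, Ccrl2, Ackr3, Pf4, Cxcl15, Relb, the cell type markers and the genes singled out afterwards were named outside this rule. Some genes that the rule picked, such as Irf7, Rsad2, Oasl1 and Il1r1, are not described. The promoters were searched on both strands, and shared exon sequence was found with blastn 2.17.0.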

Additional observations from a re-analysis of the deposited data

How the results depend on the processing

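Of the 10 genes, none that could be tested was called between MICs and non-MICs under the alternatives run, the replicate block included (other pseudocounts, a filter at the median value, TMM or quantile scaling, no variance trend, edgeR, DESeq2 and each library or pair left out). Only 8 of the 10 could be tested with the filter, which removed Ccl7 and Ccl20, and in DESeq2 without the block, which gave no adjusted p for Cxcl2 and Ccl2. Over all genes the 0 calls became 29 with the replicate block in limma, 11 and 59 with the block and without pair 1 or pair 2, 315 with the block in edgeR, 1 in DESeq2 and 133 in DESeq2 with the block, and leaving out each library in turn gave 0.

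The log2 fold changes without a block moved with the library left out, since each omission changes which replicate numbers a population holds. They ran from -0.84 to 0.56 for Cxcl1, -2.05 to 1.78 for Cxcl2, -0.71 to 1.06 for Cxcl5, -0.12 to 1.21 for Cxcl14, -0.52 to 0.60 for Cxcl16, -1.87 to 1.81 for Ccl2, -0.43 to 0.55 for Ccl7 and -0.019 to 0.50 for Cx3cl1, while those of Cxcl10 (-0.89 to -0.020) and Ccl20 (-3.05 to -0.13) stayed below 0 but came near it. With the replicate block, signs turned for Cxcl1 (0.21), Cxcl16 (-0.0086) and Ccl2 (0.12) without pair 1, for Cxcl10 (0.31) and Ccl7 (-0.080) without pair 2, and for Ccl2 (0.031) and Ccl7 (-0.14) without pair 3.

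The comparison of replicate numbers called between 0 and 6240 genes, and between 0 and 9 of the 10, when 1 library was left out, and 2364 genes with 6 of the 10 without the variance trend, where the cause was not tested. The Cxcl10 difference of number 3 ran from -1.40 to 0.042 over these omissions. Depth limits Ccl7 most, with at most 29 reads in a library, and Ccl20, with at most 34 in the libraries numbered 1 and 2.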
